A study of Mus musculus with 12 samples.

Results

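The genes described here are 10 genes that lie around *Chd8* on mouse chromosome 14: *Ndrg2*, *Arhgef40*, *Zfp219*, *Hnrnpc*, *Rpgrip1*, *Supt16*, *Rab2b*, *Tox4*, *Mettl3* and *Sall2*. Each was taken as the row of the deposited expression table that carries its symbol, and all 10 of the 10 had such a row among 14244 genes. Poly(A) RNA from isolated gut epithelial cells was sequenced with 1 library per mouse in 5 wild-type (WT) and 7 *Chd8L*+/- mice. All were male C57BL/6 littermates aged 8 weeks. The *Chd8L*+/- mice carry, in every tissue, 1 *Chd8* allele that lacks exons 11 to 13, which removes the large isoform (CHD8L), and WT mice carry no engineered allele. Gut segment and pooling of segments are not given in the sources used here.

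CHD8 is a chromatin remodeller of the chromodomain helicase family that binds at many active promoters, and loss of 1 copy in humans is a well known cause of autism. Its gene stands in a crowded stretch of the genome whose other genes have unrelated jobs. Some encode an RNA-binding protein of the heterogeneous nuclear ribonucleoprotein particles, a histone chaperone and the catalytic subunit of the m6A methyltransferase. Others encode a Golgi Rab GTPase and several transcription factors. Neighbouring genes are inherited together on 1 chromosome segment, and genes that start back to back often share a promoter region.

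On GRCm38 (GENCODE M21), *Chd8* occupies chr14:52198151-52257780 on the minus strand. *Supt16* (chr14:52160414-52197416, minus strand) starts its transcription 734 bases beyond the end of *Chd8*. On the other side *Rab2b* (chr14:52261759-52279545, minus strand) ends 3978 bases from the start of *Chd8*. *Tox4* (chr14:52279146-52296401, plus strand) runs away from *Rab2b*, and the first bases of these 2 divergent genes overlap by 400 bases. *Mettl3* (chr14:52294841-52305128, minus strand) ends inside *Tox4*, with 1561 bases in common, and *Sall2* (chr14:52311172-52328762, minus strand) follows it. *Rpgrip1* (chr14:52110704-52163546, plus strand) ends inside *Supt16*, with 3133 bases in common. *Hnrnpc* (chr14:52073377-52104028, minus strand), *Zfp219* (chr14:52006077-52020733, minus strand), *Arhgef40* (chr14:51984719-52006251, plus strand) and *Ndrg2* (chr14:51905271-51914158, minus strand) lie farther out. Whether the counting used strand is not stated, and where exons of opposite genes overlap their reads cannot then be told apart. Overlap with *Rpgrip1* covers 20.98% of the exon bases of *Supt16*. For *Mettl3* the part shared with *Tox4* is 18.4%, and for *Rab2b* an unconfirmed transcript on the other strand, *Gm43766*, covers 59.3%. *Zfp219* shares 5.89% of its exon bases with *Tmem253*, 3.87% with *Arhgef40* and 2.965% with the antisense transcript *Gm49086*. The share is 8.70% for *Rpgrip1* with *Supt16* and 13.42% for *Tox4* with *Mettl3*. For *Chd8* itself the antisense transcript *Gm26590* covers 5.77%.

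The sequences upstream of 6 starts are shown because they set the start regions beside *Chd8* against those of the neighbours with the fewest reads. They come from the RefSeq promoter table (GRCm38.p6), which matched 11 of 11 genes, and are cut to the bases that lie in no annotated exon of the window. The stretches are chr14:52197417-52197489 for *Supt16*, chr14:52257781-52258010 for *Chd8*, chr14:52278986-52279145 for *Tox4* (which lies inside *Rab2b*), chr14:52305129-52305374 for *Mettl3*, chr14:52110653-52110703 for *Rpgrip1* and chr14:52328763-52328920 for the distal start of *Sall2*. Each is written 5′ to 3′ on the strand of its gene, and capitals mark the dinucleotide CG.
Supt16: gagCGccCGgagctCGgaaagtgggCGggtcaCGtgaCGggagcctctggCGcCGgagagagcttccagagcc
Chd8: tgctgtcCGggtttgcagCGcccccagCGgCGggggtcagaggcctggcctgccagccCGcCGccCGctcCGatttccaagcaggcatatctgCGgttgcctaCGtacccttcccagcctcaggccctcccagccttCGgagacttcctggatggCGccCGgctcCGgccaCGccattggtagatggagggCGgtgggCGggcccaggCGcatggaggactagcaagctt
Tox4: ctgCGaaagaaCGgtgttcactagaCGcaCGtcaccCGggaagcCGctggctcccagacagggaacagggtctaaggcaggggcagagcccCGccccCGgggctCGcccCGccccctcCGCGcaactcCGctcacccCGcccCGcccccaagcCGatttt
Mettl3: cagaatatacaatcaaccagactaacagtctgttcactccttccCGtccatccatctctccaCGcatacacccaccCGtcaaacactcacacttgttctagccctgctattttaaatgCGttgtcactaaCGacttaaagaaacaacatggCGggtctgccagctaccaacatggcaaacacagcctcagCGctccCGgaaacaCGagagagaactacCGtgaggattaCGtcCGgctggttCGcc
Rpgrip1: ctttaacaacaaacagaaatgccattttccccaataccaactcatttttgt
Sall2: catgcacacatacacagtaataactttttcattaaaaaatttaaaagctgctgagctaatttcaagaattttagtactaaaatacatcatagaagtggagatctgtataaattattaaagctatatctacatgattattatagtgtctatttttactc
In the whole 250 bases upstream, the windows held 28 CG dinucleotides for *Supt16*, 23 for *Rab2b*, 21 for *Tox4*, 20 for *Chd8* and 13 for *Mettl3*, beside a median of 14 over 14002 promoters of genes in the table. *Rpgrip1* had 3. Of the 2 starts of *Sall2*, the distal had 0 and the proximal, which is not printed, had 6, the median over all RefSeq promoters. The letters CCGGAAG, the core recognised by ETS factors, were searched on both strands, and occurred in 1 of 15 windows of these genes, that of *Supt16*, which holds 2 matches, beside 12.3% of the promoters of genes in the table and 6.91% of all 32851 promoters. Of the *Supt16* window, 177 bases lie in an exon of that gene in GENCODE and are not printed. No binding was measured, and a match is a description of the letters alone.

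The values are normalized counts, that is, the reads of a gene in a library divided by the size factor of that library. Between 15691662 and 20761315 reads per library were recovered from them, with a median of 20207808 in WT and 17870124 in *Chd8L*+/-. Epithelial markers were found for 8 of 8 listed genes, with a summed normalized count between 143899 and 246581 per library. Of 16 proliferation markers, 15 had an unadjusted limma p of 0.05 or less, all with the higher mean in *Chd8L*+/-, beside 12.5% of all genes tested. The sum of the 16 ranged from 4045 to 17999 in WT and from 9989 to 18969 in *Chd8L*+/-. All 10 tuft cell markers had the lower mean and an unadjusted p of 0.05 or less, beside 11.8% of all genes tested. Tuft sums ranged from 3054 to 28170.3 in WT and from 1757 to 12185 in *Chd8L*+/-. Stromal and smooth muscle sums went from 26.7 to 436 and from 59.2 to 2431. WT replicate 2 stood apart from its group: on the first principal component (39.7% of the variance) it lay at 41.0, among the *Chd8L*+/- libraries (0.260 to 42.7), whereas the other 4 WT libraries lay between -67.5 and -26.2. Without it the WT sums ran from 4045 to 9325 for proliferation, from 13191 to 28170.3 for tuft and from 26.7 to 74.0 for stromal markers, so the *Chd8L*+/- proliferation sums all lay above the WT ones and the tuft sums all below. For *Chd8* and the neighbours whose call or size depends on this library, the value without it stands beside the other. In bulk RNA, fewer cells of a type and less RNA per cell cannot be told apart.

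*Chd8* itself was counted over the whole gene, which cannot show the loss of exons 11 to 13 and so checks no label. Its normalized counts in WT replicates 1 to 5 were 1002, 1050.2, 934, 955 and 823. In the libraries labelled *Chd8L*+/- they ran from 1084 to 1483, with a median of 1281, and every one lay above every WT library. The log2 fold change was 0.44 (SE 0.10, adjusted p = 0.121 over all genes, limma; exact two-sided permutation p = 0.00126, the smallest that 792 assignments can give). Of all 12808 genes tested, 0.515% had genotypes that did not overlap. After correction of each library for gene length and GC content it was 0.29. *Chd8* passed at an adjusted p of 0.05 with DESeq2 (log2 fold change 0.44, adjusted p = 0.00378) and without WT replicate 2 (0.48, adjusted p = 0.00676 with limma).

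The neighbours ranged over more than 2 orders of magnitude in level per length. Length here is the union of the exons of all annotated transcripts of a gene, so the order depends on the annotation. *Hnrnpc*, an RNA-binding protein that packages nascent transcripts, was the most abundant in both genotypes, at 537 ± 53.1 normalized counts per kb of exon in WT (SD, n = 5) and 588 ± 37.2 in *Chd8L*+/- (n = 7). Next in WT came *Ndrg2* (129 ± 15.8), *Supt16* (125 ± 39.7), *Zfp219* (118 ± 17.5) and *Tox4* (113 ± 8.72), which did not differ from each other beyond their spread. *Chd8* followed at 57.7 ± 5.17 and *Mettl3* at 30.6 ± 5.01. Lower still were *Rab2b* (8.42 ± 2.36), *Arhgef40* (6.35 ± 2.52) and *Sall2* (4.72 ± 1.61), again within each other's spread. *Rpgrip1*, a scaffold protein of the photoreceptor connecting cilium, was the lowest at 1.44 ± 0.169. The order in *Chd8L*+/- began with *Hnrnpc* and *Supt16* (182 ± 41.2) and ended with *Sall2* (3.01 ± 1.38) and *Rpgrip1* (1.73 ± 0.814). The reads behind these low values averaged 19.6 per library for *Rpgrip1* and 20.5 for *Sall2*, where counting error alone is 22.6% and 22.1% of a value.

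**Figure D1:**
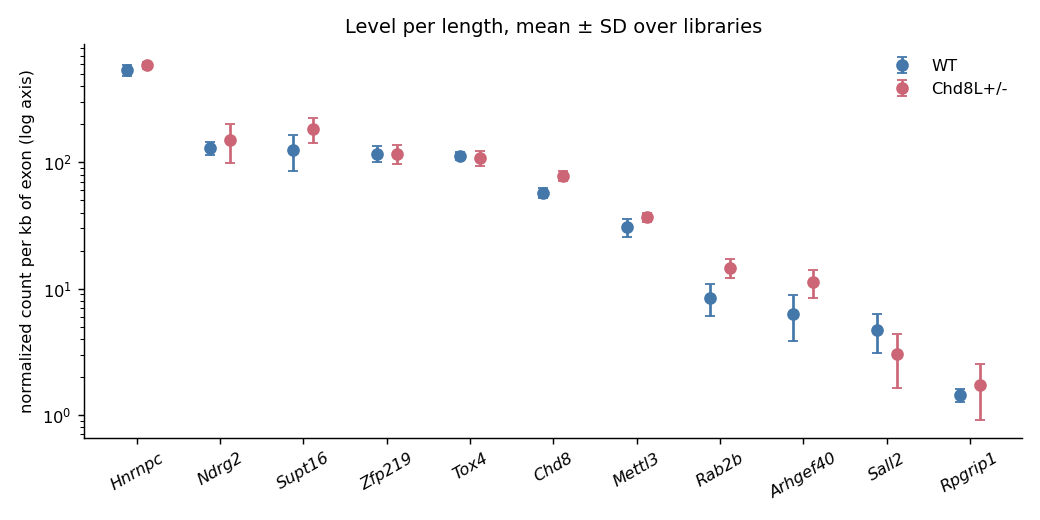
Normalized count per kb of exon (log axis) of *Chd8* and its 10 neighbours, ordered by the WT mean; points are means and bars SDs over 5 WT and 7 *Chd8L*+/- libraries. *Hnrnpc* is highest (537 per kb in WT) and *Rpgrip1* lowest (1.44 per kb).

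Across the 10 neighbours, 3 had a higher mean in *Chd8L*+/- with an unadjusted limma p of 0.05 or less (*Arhgef40*, *Rab2b* and *Supt16*) and 0 a lower one. Over all 12808 genes tested, 12.5% passed that mark in the higher and 11.8% in the lower direction. None of the 10 passed at an adjusted p of 0.05, a threshold passed by 3 genes of all those tested (0.0234%). By edgeR 0 of the 10 passed and by DESeq2 2 passed (*Arhgef40* and *Rab2b*, both higher in *Chd8L*+/-), where 1.84% of the genes DESeq2 tested were called higher. Without WT replicate 2, limma called 3 of the 10 higher (*Arhgef40*, *Rab2b* and *Supt16*), beside 14.0% of all genes. The median log2 fold change of the 10 was 0.14, and that of all genes tested was 0.01. By direction alone, 7 of the 10 (*Ndrg2* and *Rpgrip1* by values that rest on single libraries, given with each gene) had the higher mean in *Chd8L*+/- and 3 the lower. Of all 12808 genes tested, 6588 had the higher mean log2 value and 6220 the lower.

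**Figure D2:**
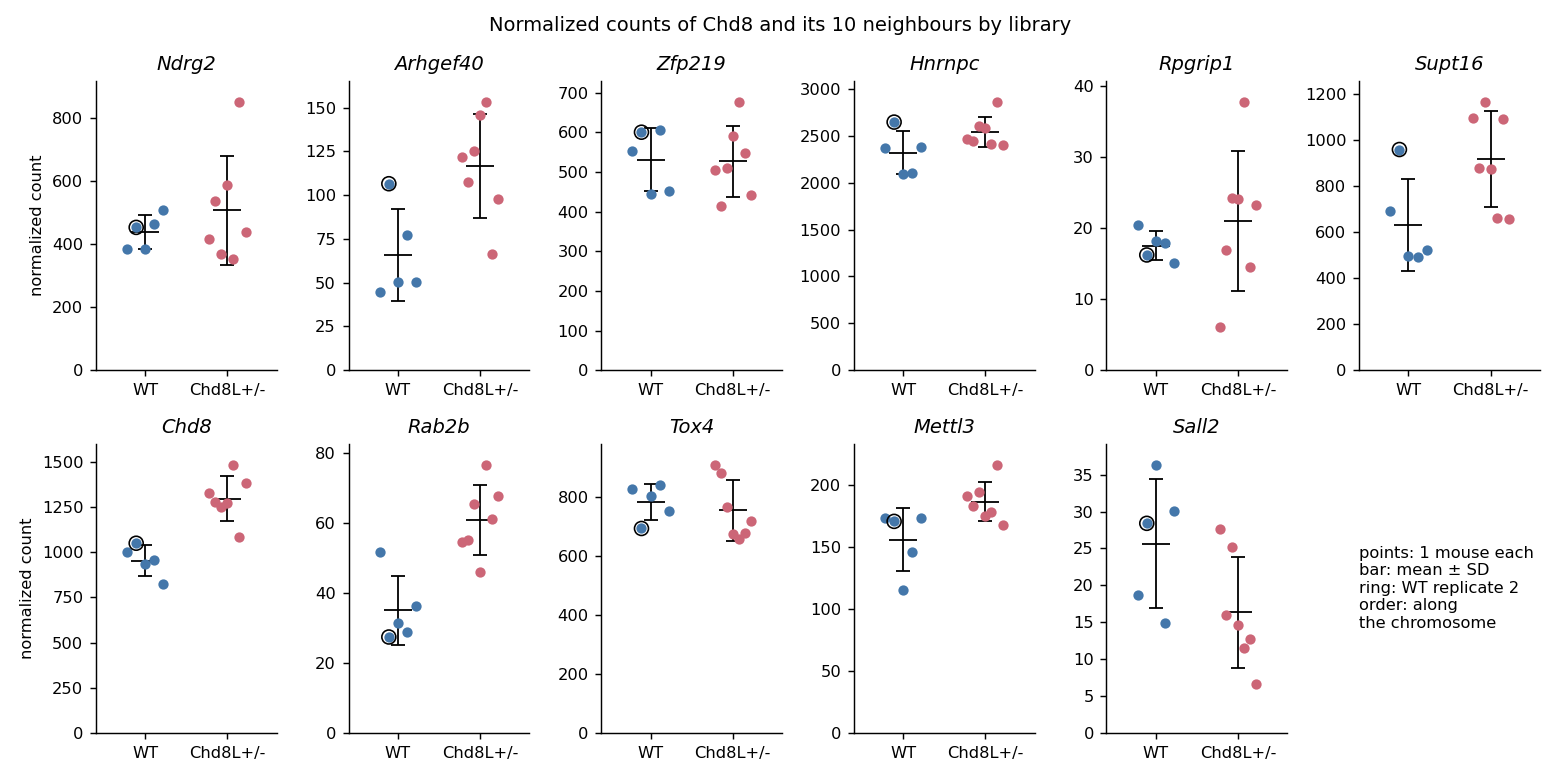
Normalized counts by library of *Chd8* and its 10 neighbours, in their order along the chromosome, from 0; each point is 1 mouse, the bar with whiskers is the mean ± SD, and the ring marks WT replicate 2. *Chd8* is the panel in which the 2 genotypes do not overlap, while in the panel of *Rab2b* 6 of 7 *Chd8L*+/- points lie above every WT point.

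*Rab2b*, a Rab GTPase of the Golgi and the neighbour upstream of *Chd8*, had normalized counts of 51.6, 27.4, 31.3, 28.8 and 36.4 in WT replicates 1 to 5. In *Chd8L*+/- the lowest was 46.1, the median 61.0 and the highest 76.5. The genotypes overlapped through 1 pair of libraries, WT replicate 1 and *Chd8L*+/- replicate 4, and 6 of 7 *Chd8L*+/- libraries lay above every WT library. The means were 35.1 ± 9.83 and 60.9 ± 10.04 (SD), a log2 fold change of 0.80 (SE 0.21; 95% confidence interval 0.36 to 1.24; limma adjusted p = 0.121; exact permutation p = 0.00253). Of all genes tested, 1.20% had a smaller p in the limma fit. WT replicate 2 had the lowest *Rab2b* count of all 12 libraries, and without it the log2 fold change was 0.72 (adjusted p = 0.0249). With WT replicate 1 or *Chd8L*+/- replicate 4 left out, *Rab2b* was the neighbour whose genotypes no longer overlapped, as was so for 0.873% and 0.789% of all genes.

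At *Supt16*, which encodes the large subunit of the histone chaperone FACT, WT replicates 1 to 5 had normalized counts of 690, 959, 496, 492 and 524. The *Chd8L*+/- libraries ran from 658 to 1163, with a median of 879.8. Counts in WT replicate 2 and, by less, replicate 1 reached into the *Chd8L*+/- range. The log2 fold change was 0.56 (SE 0.20; interval 0.13 to 0.98; adjusted p = 0.135; exact permutation p = 0.0379), and 0.72 without WT replicate 2 (adjusted p = 0.0120). With WT replicate 3, 4 or 5 left out the exact permutation p was 0.0788, and with *Chd8L*+/- replicate 1, 3 or 6 left out it was 0.0563 to 0.0584. The summed proliferation markers moved with it: they were 9325, 17999, 4045, 4454 and 6970.4 in WT replicates 1 to 5, highest in the same library as *Supt16*, and among *Chd8L*+/- libraries replicate 7 was lowest in both measures. Their part in the *Supt16* result was not tested.

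*Arhgef40*, a guanine nucleotide exchange factor, lies 192 kb from *Chd8*. Its WT values were 44.4, 107, 50.4, 77.4 and 50.2. Those of *Chd8L*+/- ran from 66.5 to 153, with a median of 122. Again WT replicate 2 was the highest WT library, and 5 of 7 *Chd8L*+/- libraries exceeded it. The log2 fold change was 0.85 (SE 0.26; interval 0.30 to 1.40; adjusted p = 0.121; exact permutation p = 0.0152), and 1.04 without WT replicate 2 (adjusted p = 0.00816). Beside the proliferation markers, WT replicate 2 was the highest WT library in both measures. Among *Chd8L*+/- libraries replicate 7, with the lowest marker sum, had 97.6 for *Arhgef40*, and replicate 6, with the highest, had 66.5. The stromal and smooth muscle sums, set beside *Arhgef40* after the values were seen, were 26.7, 436, 49.4, 48.6 and 74.0 in WT replicates 1 to 5. In *Chd8L*+/- replicates 1 to 7 they were 129, 128, 367, 964, 2431, 59.2 and 385. *Arhgef40* had 122, 108, 125, 146, 153, 66.5 and 97.6 in these 7 libraries. The part of either marker set in this result was not tested.

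The catalytic subunit of the m6A RNA methyltransferase, *Mettl3*, had WT values of 173, 170.5, 115, 146 and 173. Values in *Chd8L*+/- went from 168 to 216, with a median of 183, and 6 of 7 were above the highest WT library. With a log2 fold change of 0.27 (SE 0.14; interval -0.02 to 0.56) the limma fit gave an unadjusted p of 0.0652 (adjusted p = 0.231), while the exact permutation test gave p = 0.0114. That p became 0.122 under quantile normalization (log2 fold change 0.15) and 0.0619 after the correction for length and GC content (0.20). Without WT replicate 3, the lowest WT library, the log2 fold change was 0.17 (exact permutation p = 0.0455), and without WT replicate 2 it was 0.31 (adjusted p = 0.120). Without *Chd8L*+/- replicate 7 the genotypes of *Mettl3* did not overlap, as for 1.02% of all genes.

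**Figure D3:**
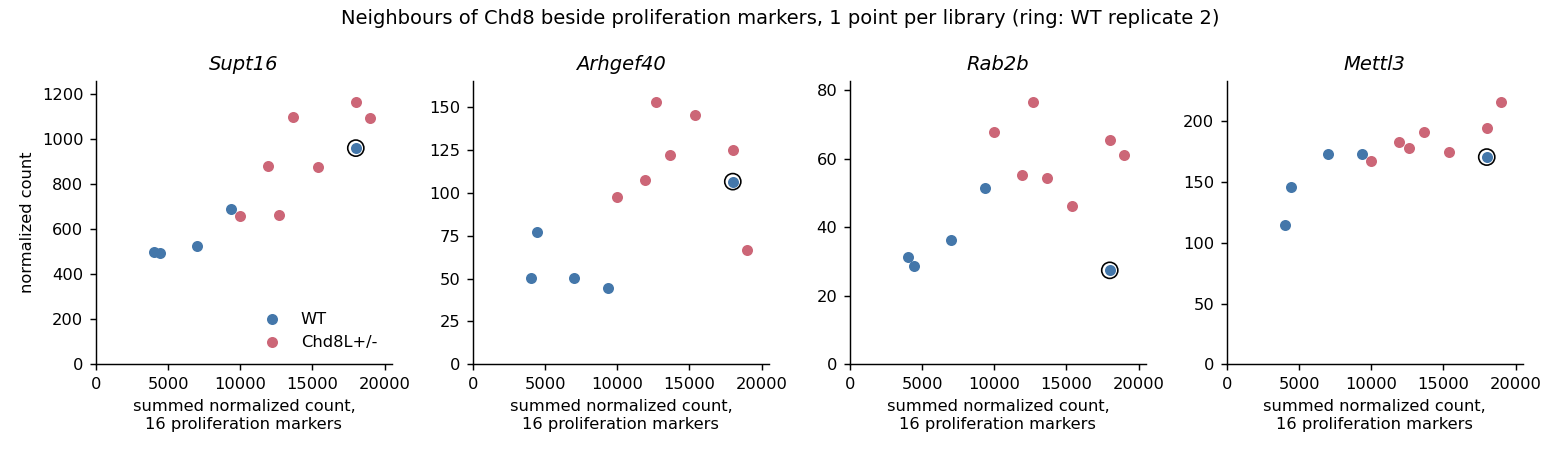
Normalized counts of *Supt16*, *Arhgef40*, *Rab2b* and *Mettl3* against the summed normalized count of 16 proliferation markers, 1 point per library; the ring marks WT replicate 2. This library lies with the *Chd8L*+/- libraries on the horizontal axis (17999), is high for *Supt16* (959) and is the lowest for *Rab2b* (27.4).

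The means of *Hnrnpc* were close. WT values were 2376, 2647, 2098, 2102 and 2377, and *Chd8L*+/- values ran from 2407 to 2857 with a median of 2466. All 7 *Chd8L*+/- libraries were above the WT median, yet WT replicate 2 was higher than 6 of them. The log2 fold change was 0.13 (SE 0.10; interval -0.07 to 0.34; adjusted p = 0.398; exact permutation p = 0.0783). Without WT replicate 2 the genotypes did not overlap, which was then so for 14.4% of all genes, and the log2 fold change was 0.18 (adjusted p = 0.159).

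*Tox4*, a DNA-binding HMG-box protein of the PTW/PP1 phosphatase complex, had WT values of 827, 693, 803, 841 and 752. The *Chd8L*+/- libraries spread wider, from 656 to 908 with a median of 718, so 2 lay above and 3 below all WT libraries. Its log2 fold change was -0.06 (interval -0.30 to 0.18; adjusted p = 0.761; exact permutation p = 0.529). For *Zfp219*, a zinc finger transcription factor, WT values were 554, 601, 444, 606 and 451, against 415 to 676 in *Chd8L*+/- with a median of 509.8. The log2 fold change of -0.02 (interval -0.32 to 0.28; adjusted p = 0.956; exact permutation p = 0.918) turned positive in some alternatives. As folds, these intervals run from 0.812 to 1.13 for *Tox4* and from 0.804 to 1.22 for *Zfp219*.

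*Ndrg2*, a member of the N-myc downstream regulated family, had WT values of 385, 454, 384, 464 and 508. One *Chd8L*+/- library, replicate 6, reached 850.3, with the others between 352 and 587 and a median of 439 for all 7. The spread was 34.2% of the mean in *Chd8L*+/- and 12.2% in WT, and the log2 fold change was 0.16 (interval -0.27 to 0.58; adjusted p = 0.647; exact permutation p = 0.513). Without *Chd8L*+/- replicate 6 it was 0.02.

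The genes with the fewest reads gave the widest intervals. *Sall2*, a spalt family transcription factor, had WT values of 18.7, 28.4, 36.3, 14.9 and 30.1. In *Chd8L*+/- they ran from 6.66 to 27.6 with a median of 14.7; 4 of 7 were below every WT library and 0 of 7 were above the WT median. It was the only one of the 10 with a log2 fold change below -0.10, at -0.67 (SE 0.36; interval -1.45 to 0.10; adjusted p = 0.261; exact permutation p = 0.0821). *Rpgrip1* had WT values of 20.4, 16.2, 18.1, 17.9 and 15.0, and *Chd8L*+/- values from 6.05 to 37.7 with a median of 23.3. Its spread was 47.1% of the mean in *Chd8L*+/- and 11.7% in WT, with a log2 fold change of 0.10 (interval -0.69 to 0.89; adjusted p = 0.891; exact permutation p = 0.799). Without *Chd8L*+/- replicate 1, the lowest library, this was 0.35, and without replicate 5, the highest, -0.06.

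**Figure D4:**
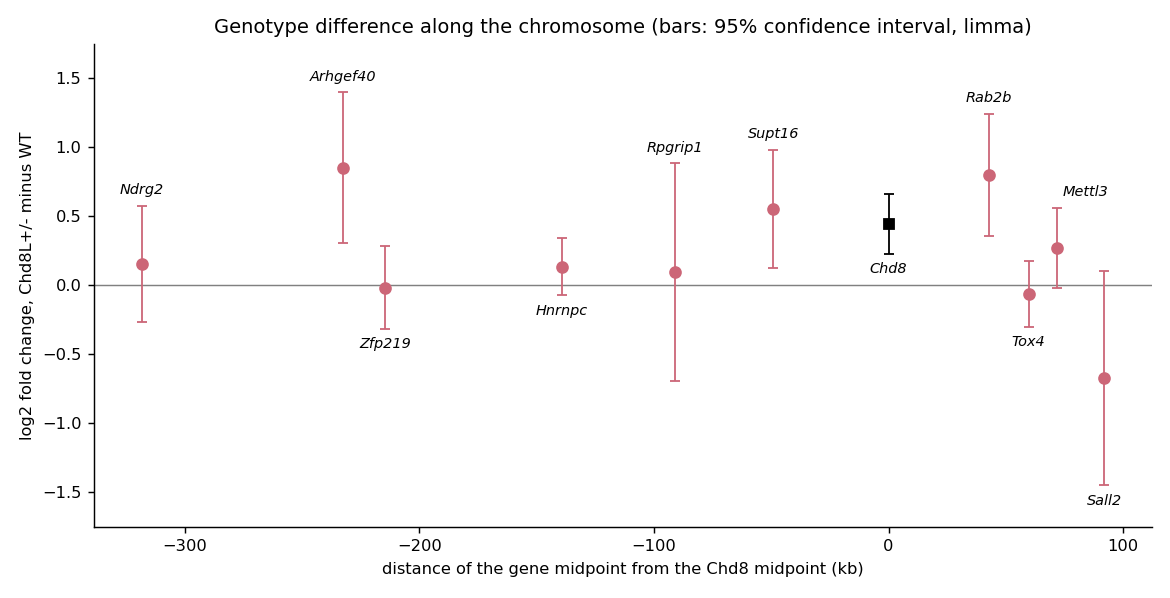
Log2 fold change (*Chd8L*+/- minus WT, limma) of *Chd8* (square) and its 10 neighbours (circles) against the distance of each gene's midpoint from that of *Chd8*, in kb; bars are 95% confidence intervals. The intervals of *Arhgef40*, *Supt16*, *Rab2b* and *Chd8* lie above 0, and those of the genes between and beside them include 0.

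Adjacent genes were also compared by their ratio within a library. In the divergent pair *Rab2b* and *Tox4*, whose first bases overlap, the log2 ratio of *Tox4* to *Rab2b* was 4.48 ± 0.33 in WT (3.98 to 4.82) and 3.62 ± 0.35 in *Chd8L*+/- (3.08 to 4.04). For *Zfp219* to *Arhgef40*, which converge, it was 3.06 ± 0.40 in WT (2.48 to 3.61) and 2.19 ± 0.38 in *Chd8L*+/- (1.94 to 3.03). The ratio of *Sall2* to *Mettl3* was -2.60 ± 0.64 in WT and -3.55 ± 0.60 in *Chd8L*+/-. The ratio of *Chd8* to *Supt16*, which lie in tandem, was 0.64 ± 0.33 and 0.53 ± 0.45, a difference of -0.11, or -0.24 without WT replicate 2. The ratio of *Rab2b* to *Supt16*, the genes flanking *Chd8*, was -4.12 ± 0.55 and -3.88 ± 0.49, a difference of 0.24 that was 0.0048 without WT replicate 2. The ratios are on the log2(value + 1) scale, are descriptions without a test, and were chosen after the values had been seen.

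Of the other 17 protein-coding genes within 500 kb of *Chd8*, 4 had a row, and all 4 had a mean of 10 or more. Of these, 1 had the higher mean log2 value in *Chd8L*+/- and 3 the lower, beside 6588 and 6220 of all 12808 genes tested. *Mettl17*, a mitochondrial ribosome assembly factor, had 186 ± 37.5 in WT and 275 ± 71.4 in *Chd8L*+/- (log2 fold change 0.54, SE 0.20; unadjusted p = 0.0171, adjusted p = 0.140, limma). *Ang4*, an antimicrobial ribonuclease of Paneth and goblet cells, had 26035 ± 13031 in WT and 8256 ± 8150.2 in *Chd8L*+/- (log2 fold change -1.93, SE 0.54; unadjusted p = 0.00309, adjusted p = 0.121).

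Partners of the proteins that the neighbours encode were counted as well. *Ssrp1*, the other subunit of FACT, had 1145 ± 397 in WT and 1478 ± 296 in *Chd8L*+/- (log2 fold change 0.40, SE 0.20, adjusted p = 0.232). In the list of FACT and histone chaperones, 3 of 9 genes (*Chaf1a*, *Chaf1b* and *Asf1b*, chaperones of replicating chromatin named after their values were seen) had an unadjusted p of 0.05 or less, all with the higher mean in *Chd8L*+/-, beside 12.5% of all genes, and 0 passed at an adjusted p of 0.05. The list's median log2 fold change was 0.28. The 16 proliferation markers, with a median of 0.98, had higher means in *Chd8L*+/- as well, and their part in these values was not tested. For the m6A writers it was 0.16, with 2 of 7 genes past the unadjusted mark, *Mettl14* (log2 fold change 0.34, SE 0.13, adjusted p = 0.151) and *Virma* (0.27, SE 0.11, adjusted p = 0.159), both higher, beside 12.5% of all genes. *Wtap* had -0.21 (adjusted p = 0.290) and *Zc3h13* 0.14 (adjusted p = 0.674). None of the 7 erasers and readers of m6A passed that mark.

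Heterogeneous nuclear ribonucleoproteins had the higher mean in *Chd8L*+/- in 21 of 24 cases, with a median of 0.22; 4 of the 24 had an unadjusted p of 0.05 or less, all higher, beside 12.5% of all genes, and 0 an adjusted p of 0.05 or less. *Hnrnpa1* had a log2 fold change of 0.35 (adjusted p = 0.269) and *Raly*, the closest relative of *Hnrnpc*, 0.04 (adjusted p = 0.840). All 5 genes of the PTW/PP1 phosphatase had lower means, among them *Wdr82* (-0.02, adjusted p = 0.928) and *Ppp1r10* (-0.15, adjusted p = 0.607), and 0 of 5 had an unadjusted p of 0.05 or less. Beside these counts by direction, 6588 of all 12808 genes tested had the higher mean log2 value and 6220 the lower.

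The relatives of other neighbours gave values of both signs. *Rab2a*, the close paralog of *Rab2b*, had 3300.5 ± 429.7 in WT and 2671 ± 211 in *Chd8L*+/-, a log2 fold change of -0.30 (SE 0.11, unadjusted p = 0.0168, adjusted p = 0.140), against 0.80 for *Rab2b*; the difference between these values was not tested. Over the 11 Golgi and early secretory Rab genes the median was -0.19, with 9 of 11 lower, beside 6220 of all 12808 genes tested. In the NDRG family *Ndrg1* had 1680.3 ± 467 in WT and 1087 ± 161 in *Chd8L*+/- (log2 fold change -0.60, SE 0.17, adjusted p = 0.121). Its genotypes did not overlap, as was so for 0.515% of all 12808 genes tested. *Ndrg3* had -0.31 (adjusted p = 0.142). *Rpgrip1l* had 0.43 (adjusted p = 0.223) and *Rpgr* 0.28 (adjusted p = 0.320). Of the spalt family, *Sall4* had a mean of 4.30 in WT and 0.579 in *Chd8L*+/-, under the filter, and *Sall1* had no row.

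**Figure D5:**
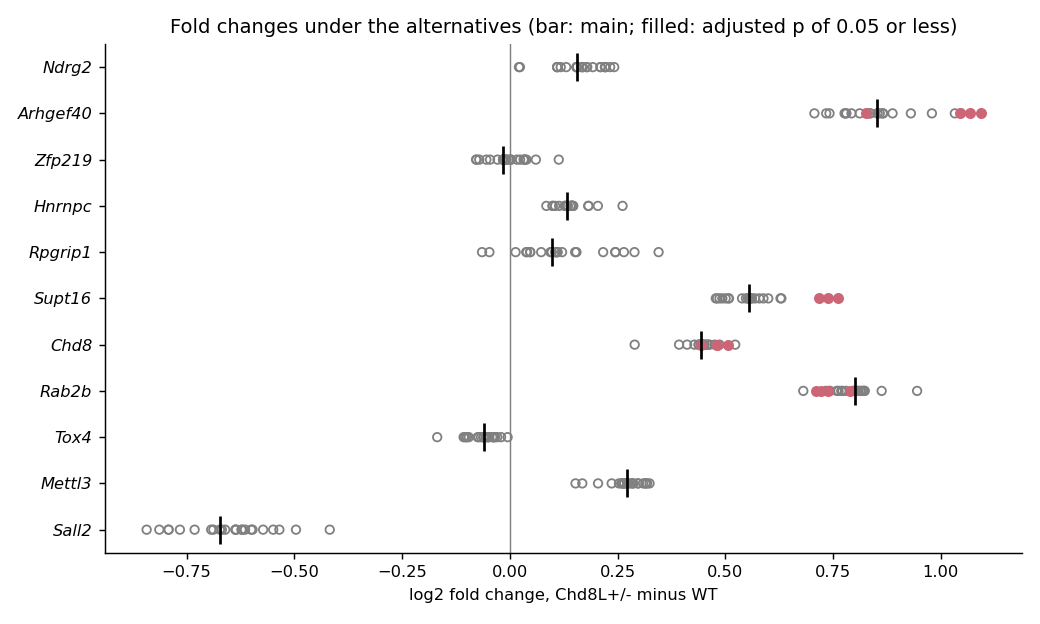
Log2 fold changes of *Chd8* and its 10 neighbours in the reported fit (bar) and under 25 alternatives (circles; 24 for *Rpgrip1* and *Sall2*); filled circles have an adjusted p of 0.05 or less. *Chd8*, *Arhgef40* and *Rab2b* pass in 4 alternatives each and *Supt16* in 3.

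The direction of 8 of the 10 held in every alternative run, the exceptions being *Zfp219* and *Rpgrip1*. *Arhgef40* stayed between 0.71 and 1.09, *Rab2b* between 0.68 and 0.95 and *Supt16* between 0.48 and 0.76 on the log2 scale. Past an adjusted p of 0.05 were *Arhgef40*, *Rab2b* and *Chd8* with DESeq2 (adjusted p = 0.0429, 0.0216 and 0.00378), and these genes with *Supt16* in every fit without WT replicate 2 (limma, edgeR and DESeq2). Without that library, limma called 1789 of 12807 genes higher, edgeR 1800 of 12807 and DESeq2 2133 of 14238. The library was singled out from these same values, so the fits without it are not separate evidence.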

How the data were processed

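Normalized counts of 12 libraries (5 WT, 7 *Chd8L*+/-) were used. The authors prepared poly(A) libraries, sequenced them as 75-base single-end reads, mapped them to mm10 with Tophat and deposited the signal of each gene, reads divided by a DESeq2 size factor. The counting program, annotation, filters and use of strand are not given in the sources used here. Values were whole multiples of 1 read in 100% of cases (tolerance 0.01), so reads were recovered. Errors of counting cover counting alone, whereas the limma intervals rest on the spread between libraries. Libraries of a genotype differed beyond sampling noise in every pair.

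The 12808 genes whose mean reached 10 were fitted with limma 3.58.1 (R 4.3.3; lmFit, trended eBayes) as log2(value + 1), with Benjamini-Hochberg adjustment over all of them at 0.05, and fold changes are on that scale. For single genes an exact permutation test, two-sided, ran through 792 assignments (smallest p 0.00126); its p-values are raw, over 11 genes. Alternatives were other pseudocounts, filters and scalings, edgeR 4.0.16 and DESeq2 1.42.0 on recovered reads, blocks, and each library left out. Both count tools without WT replicate 2 were added after the values were seen. The plain limma, edgeR and DESeq2 fits were first checked on simulated reads. Those reads had a fixed dispersion and no library that stood apart, so they check neither the other fits nor the part of WT replicate 2. Exon lengths, positions and overlaps come from GENCODE M21. The neighbours, all named, *Chd8* and the lists were chosen with earlier results of these data known; other coding genes within 500 kb were named at an unadjusted p of 0.05 or less or where genotypes did not overlap, and partners as the closest relative or complex member. Of 14244 rows, 21 bear a name turned into a date and were not used by name. The result of 1 gene list is not reported here.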

Additional observations from a re-analysis of the deposited data

How the results depend on the processing

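The count of genes past the threshold, 3 in the reported fit, was 5 with edgeR, 811 with DESeq2, 451 with the opening letter of the library name as a block, 1 after removal of length and GC trends, 3365 with edgeR and 4112 with DESeq2 when WT replicate 2 was also left out. With the replicate block it was 0 (2327 genes at an unadjusted p of 0.05), and 0 of the 10 neighbours passed. Same-numbered libraries correlated at 0.19, -0.34, -0.13, -0.17 and -0.23 in their deviations, and 1 of 5 WT libraries correlated best with its own number. So few correlations cannot show whether these libraries share more than a number. Litter is not given for any library and entered no fit or test, and the number within the library name was not tried as a block. Leaving out 1 library gave 0 to 3534 genes, the highest without WT replicate 2. Neighbours past the threshold were 0 in the reported fit, 2 with DESeq2, 0 to 3 with 1 library left out, and 3 with edgeR or DESeq2 and without WT replicate 2. Neighbours whose genotypes did not overlap numbered 0 to 1 with 1 library left out. The cause of these shifts was not tested. *Rpgrip1* and *Sall2* had no value under the filter of 10 in every library. Depth limits these genes most, at 19.6 and 20.5 reads on average.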

Other observations

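A transcript antisense to *Arhgef40*, *Gm16617*, had a row but a mean below 10 and so no place in the fit. Its normalized counts were 4.06 in WT replicate 2 and 0 in the other 4 WT libraries, and ran from 1.82 to 14.7 in *Chd8L*+/- (0.812 ± 1.82 and 7.93 ± 5.02, SD, n = 5 and 7; exact two-sided permutation p = 0.00505, a gene chosen after its values were seen). Its exons share 260 bases with those of *Arhgef40* on the other strand, which is 2.51% of the exon bases of *Arhgef40*, and reads there cannot be told apart where strand was not used.

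Among the 22 groups formed by 11 genes and 2 genotypes, 0 had a library far enough from the rest to pass Dixon's 95% criterion, where chance would pass about 1.1. The *Chd8L*+/- replicate 6 value of *Ndrg2* (850.3) did not pass it.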
